A study of Rattus norvegicus with 4 samples.

Results

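Rat-1·RasValA1 cells given IPTG to induce the oncogene HrasG12V were compared with and without zinc. Expression was read from 2 arrays, 1 with IPTG alone and 1 with IPTG and zinc. The cells are rat embryonic fibroblasts that carry HrasG12V behind a promoter opened by IPTG. All cultures in the series shared this line and 24 h in serum-free DMEM with 0.1% bovine serum albumin. The array labelled IPTG came from cells given 5 mM IPTG, and the array labelled IPTG and zinc from cells given 5 mM IPTG with 3 µM ZnCl2. A further pair, without additions and with 3 µM ZnCl2 alone, was used to set the difference beside that in cells not given IPTG. The members are the gene probes with a table value of at least 25, the median of the listed probes, on at least 1 of the 2 IPTG arrays. There were 7596 of them among 20174 gene probes.

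Each condition had 1 array, so the differences below are sizes without a replicate check and carry no p-value. A difference between cultures and a difference between labellings or arrays cannot be told apart. No array held cells without the inducible allele, and the labels do not say whether the line is a single clone. The probes are listed only by Ensembl gene identifier, and the reference tables used here hold none of the 20174 identifiers. Hras, the metallothioneins, fibroblast markers and gene functions were therefore not analysed here, and the differences are described by their size, direction, level and pattern over the 4 arrays.

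The HrasG12V protein is a Hras mutant that stays loaded with GTP and keeps the RAF, MEK and ERK kinase cascade active, which changes the transcription of growth, adhesion and matrix genes in fibroblasts. Zinc is a cofactor of many enzymes and transcription factors. Cells sense a rise in free zinc through the transcription factor Mtf1, which binds metal response elements and turns on metallothioneins, which bind the ion, and the exporter Slc30a1. The design asks whether zinc changes expression while Ras signalling is switched on.

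The arrays were similar in coverage, with 13450 to 14608 probes listed per array. The blank spots of the array with IPTG and zinc averaged 69.8 units of scanner signal, against 66.0 to 66.5 on the other arrays. Of the spots carrying no probe, 24.0% lay above the blank limit there, against 16.6% to 17.9% elsewhere. The part of these shifts in the results was not tested. Repeat spots of the second positive control, 24 per array, had an SD of 0.16 with IPTG and 0.19 with IPTG and zinc on the log2 scale. Those of the first had 0.09 and 0.13. Both controls were bright on these arrays, with geometric mean table values from 5620 to 7794. Their spread within an array does not describe dim probes or differences between arrays.

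Between the array with IPTG and zinc and that with IPTG alone, 664 of the 7596 probes were at least 2-fold apart, or 8.74%. Higher with zinc were 335 probes (4.41%), and lower were 329 (4.33%). The median log2 difference over the probes listed on both arrays was -0.25 in the table as deposited, where each array is scaled to its own median. A probe was therefore called only where it was at least 2-fold apart both as deposited and after this median had been subtracted, which is named the centred difference here. The split between directions followed the scaling: the table as deposited gave 335 higher and 649 lower, and the centred difference gave 513 higher and 329 lower.

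The scaling itself could be traced. Each table value was a straight line of the scanner signal above the blank mean, and the factor for the array with IPTG and zinc was smaller than that for IPTG alone, by -0.30 on the log2 scale. With the scanner signal minus the blank mean and no scaling, the median log2 difference was 0.04, and 569 probes were higher and 290 lower. The positive controls differed by -0.16 and -0.40 on the log2 scale of the table, on either side of its median.

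Most probes differed little. After centring, 3047 of 7596 (40.1%) were within 1.2-fold and 5430 (71.5%) within 1.5-fold between the 2 IPTG arrays. In the table as deposited, the quartiles of the log2 difference were -0.58 and 0.11, and the extremes were -5.02 and 4.15. Of the called probes, 75 (0.987% of the members) were at least 4-fold higher on both scales and 44 (0.579%) at least 4-fold lower. In the table as deposited, the median fold was 2.74 among the higher probes and 2.98 among the lower ones, so most called probes lay nearer to the limit than to the extremes. The smallest fold among the lower probes was 2.38 there, because a call also had to pass the limit after centring. The order of these medians depends on scaling. After centring, the median log2 difference was 1.70 for the higher probes and -1.32 for the lower ones.

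**Figure D1:**
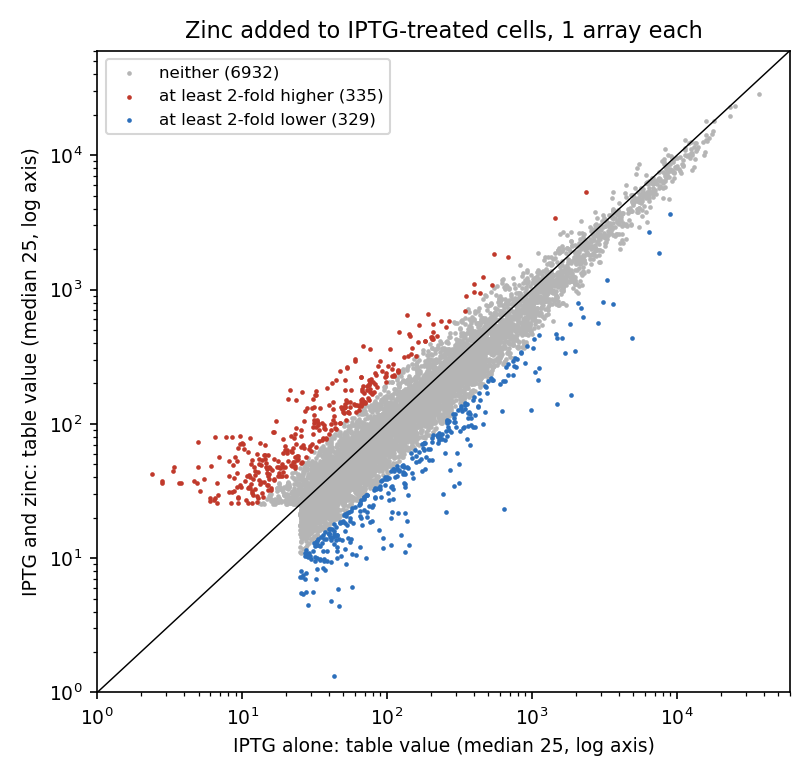
Table values of 7596 probes with IPTG alone (horizontal log axis) and with IPTG and zinc (vertical log axis), 1 array each, except 1 probe whose spot was marked poor with IPTG and zinc. The black line marks equal values; the 335 red probes lie above it and the 329 blue probes below, and most of the brightest probes lie close to it.

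How the share of called probes ran with level depended on the background. In the table it was 12% of the 1475 probes whose higher value lay between 25 and 50, 9.5% of the 2221 between 100 and 300, and 3.88% of the 825 with 1000 or more. A robust SD of the log2 difference, from the median absolute deviation, went from 0.60 in the dimmest class to 0.32 in the brightest. At 1000 or more, 7 probes were higher with zinc, by 2.02-fold to 3.36-fold, and 25 were lower, by 2.38-fold to 11.3-fold. After centring alone the brightest class had 15 higher and 25 lower, but normexp with the local background turned this to 50 and 44. No direction is therefore given for bright probes as a class. The order of the classes turned as well: with normexp, whose offset of 50 shrinks dim differences, 0.475% of the probes from 25 to 50 were at least 2-fold apart, 8.37% of those from 100 to 300, 13.3% of those from 300 to 1000 and 11.4% of those with 1000 or more. At the entry threshold, the 377 probes with a highest value from 25 to 30 had 9.81% called, and the 444 probes from 20 to 25, which did not enter, had 11.7%.

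**Figure D2:**
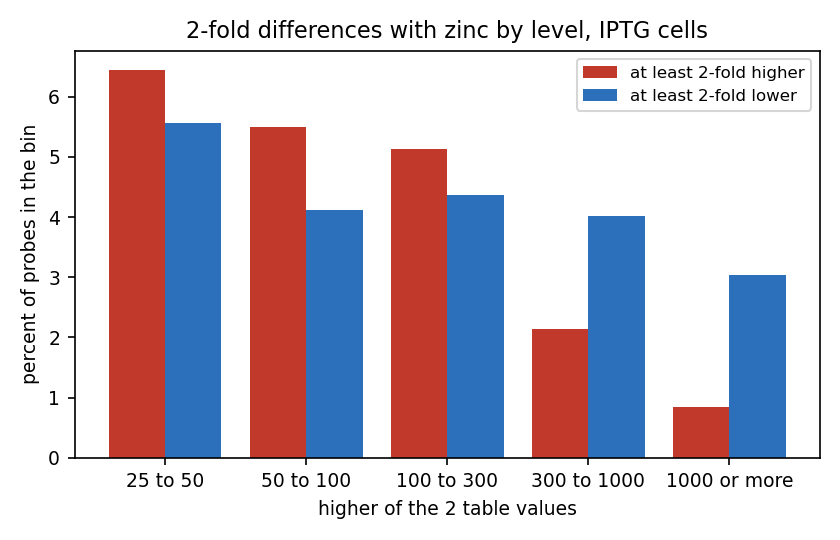
Percent of probes at least 2-fold higher (red) and lower (blue) with zinc in IPTG-treated cells, by the higher of the 2 table values. Both shares are largest between 25 and 50, at 6.44% and 5.56%, and smallest at 1000 or more, at 0.848% and 3.03%; the balance of red and blue depends on scaling, and with normexp the order turns, at 0.475% called from 25 to 50 and 11.4% at 1000 or more.

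Of the 4 probes with the highest and lowest differences, 3 had under 10 units of scanner signal above the blank mean on the dimmer array of the pair. ENSRNOG00000023035 had the largest difference upwards. Its table value was 2.40 with IPTG and 42.6 with IPTG and zinc, beside 40.2 without additions and 41.1 with zinc alone. The array with IPTG alone was thus low, and the other 3 were close to each other. The ratio was 17.7-fold as deposited. In scanner units above the blank mean, it rested on 4.25 units with IPTG, where the detection limit was 1.65, and 92.5 with both. Normexp with the local background and an offset of 50 gave 1.88-fold.

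ENSRNOG00000010126 was next, with 4.97 with IPTG and 73.2 with IPTG and zinc. Its values without additions and with zinc alone were 58.9 and 34.8. The array with IPTG alone was again the lowest, but the others were less close to each other than for ENSRNOG00000023035. The ratio was 14.7-fold as deposited and 1.82-fold with normexp.

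Among the lower probes, ENSRNOG00000014585 came first. It had 42.7 with IPTG and 1.32 with IPTG and zinc, and 9.45 and 6.57 without additions and with zinc alone. Here the array with IPTG was high and the array with both was the lowest of the 4. The ratio was 32.5-fold lower as deposited and 2.18-fold lower with normexp, and the signal with both was only 2.86 units above the blank mean, with a limit of 2.02.

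ENSRNOG00000022719 kept more of its size under the other background. Its table value was 641 with IPTG and 23.0 with IPTG and zinc, against 48.3 without additions and 31.7 with zinc alone. Only the array with IPTG was high. The signal was 27.9-fold lower with zinc as deposited and 9.27-fold lower with normexp, from 1135 units above the blank mean down to 50.03.

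The scanner signal minus the blank mean differs from the table only by a constant on the log2 scale, so it moves the limit and gives no separate check of a call; 335 of the higher and 290 of the lower probes were past 2-fold on it. An offset of 50 with quantile normalization, which shrinks dim differences, left 208 (62.1%) and 135 (41.0%) at 2-fold, all in their direction. With normexp on the local background, 319 of 335 and 322 of 329 kept their direction, but only 117 (34.9%) and 100 (30.4%) were 2-fold apart. On these arrays, probes over 1000 units had a local background that, less the blank spots' own, made up 37.2% and 35.3% of their signal (medians). At least 2-fold apart under all of these settings were 110 higher and 85 lower probes.

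The levels of the 110 and 85 probes were partly set by the filter, because settings with an offset shrink dim differences. These levels therefore cannot show whether the differences favour bright or dim spots. The higher value of the pair ran from 36.3 to 5351 in the 110, of which 28 had 300 or more. In the 85 it ran from 42.7 to 7542, and 44 had 300 or more. Median folds in the table as deposited were 3.19 for the higher and 3.88 for the lower probes. Centring makes the folds of higher probes larger and those of lower probes smaller, so this order depends on scaling.

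Called probes were found in every block of spots, but not evenly. Across 24 blocks, each with 280 to 364 members, the share called had a median of 8.51% and ran from 4.55% to 13.8%. The highest shares were in blocks 1 (13.8%), 23 (13.7%), 24 (11.5%) and 2 (10.1%), the first and last by number. A link between the calls and the place on the array was not tested.

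The same 7596 probes differed less with zinc in cells without IPTG, by a margin that depended on the background. That pair of arrays shares none with the IPTG pair. There, 14 probes were 2-fold apart on both scales, or 0.184%, against 8.74% in the induced cells. Higher with zinc were 9 of them (0.118%) and lower 5 (0.0658%). Chosen by their own values of 25 or more, 6983 probes entered the pair without IPTG, and 13 (0.186%) were called. The robust SD of the log2 difference was 0.21 without IPTG and 0.51 with it, and 75.5% of probes against 40.1% were within 1.2-fold after centring. The contrast held in each class of level: from 100 to 300 the robust SD was 0.19 and 0.54, and at 1000 or more it was 0.16 and 0.32, in the probes that reached 25 in the pair concerned. With normexp on the local background the contrast was much smaller: 221 of the probes were 2-fold apart without IPTG and 525 with it, and the robust SDs were 0.32 and 0.43. The difference between the pairs was not tested, since each rests on 2 arrays.

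**Figure D3:**
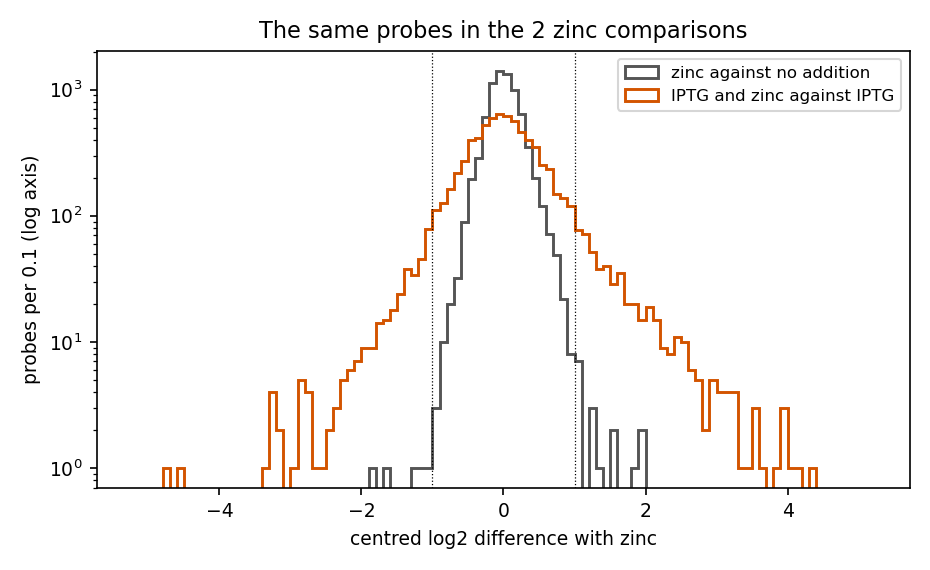
Distribution of the centred log2 difference with zinc for the same 7596 probes, in the pair with IPTG (orange) and the pair without (grey), with the number of probes per step of 0.1 on a log axis. Dotted lines mark 2-fold; the grey curve is narrow, with a robust SD of 0.21, and the orange one wide, with 0.51.

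The probes called in the induced cells had median differences near 0 with zinc in the other cells. Over the 335 higher probes the median centred log2 difference was 1.70 with IPTG and -0.03 without it, and 150 of them (44.8%) were above 0 without IPTG. Over the 329 lower probes the medians were -1.32 and 0.01, and 159 (48.3%) were below 0 without IPTG. At least 1.5-fold apart without IPTG, in either direction, were 14 of the higher probes (4.18%) and 19 of the lower ones (5.78%), beside 3.25% of the 6932 probes that were not called.

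Of the called probes, 2 were also 2-fold apart in the same direction without IPTG, and 0 in the opposite one. The higher of these had table values of 78.5 with no addition, 164 after zinc, 67.8 after IPTG and 193 after the combination, so both zinc arrays lay above both others. The lower had 8.32, 3.17, 26.4 and 7.50 in the same order, and normexp with the local background put it at 0.75 times its level with IPTG alone, inside the 2-fold limit.

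The levels of the called probes were then set out over all 4 arrays. The median table value of the 335 higher probes was 28.7 with IPTG and 86.9 with IPTG and zinc, beside 76.4 without additions and 66.1 with zinc alone. For the 329 lower probes it was 117 with IPTG and 36.1 with both, and 50.1 and 42.9 on the arrays without IPTG. In both lists the median with IPTG alone was apart and that with both was near the others. After centring, the value without additions was nearer to that with both than to that with IPTG alone for 283 of the higher probes (84.5%) and 230 of the lower ones (69.9%), against 59.8% of the probes not called. The called probes were chosen for a difference that includes the array with IPTG alone, so these shares describe the lists and support nothing further.

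**Figure D4:**
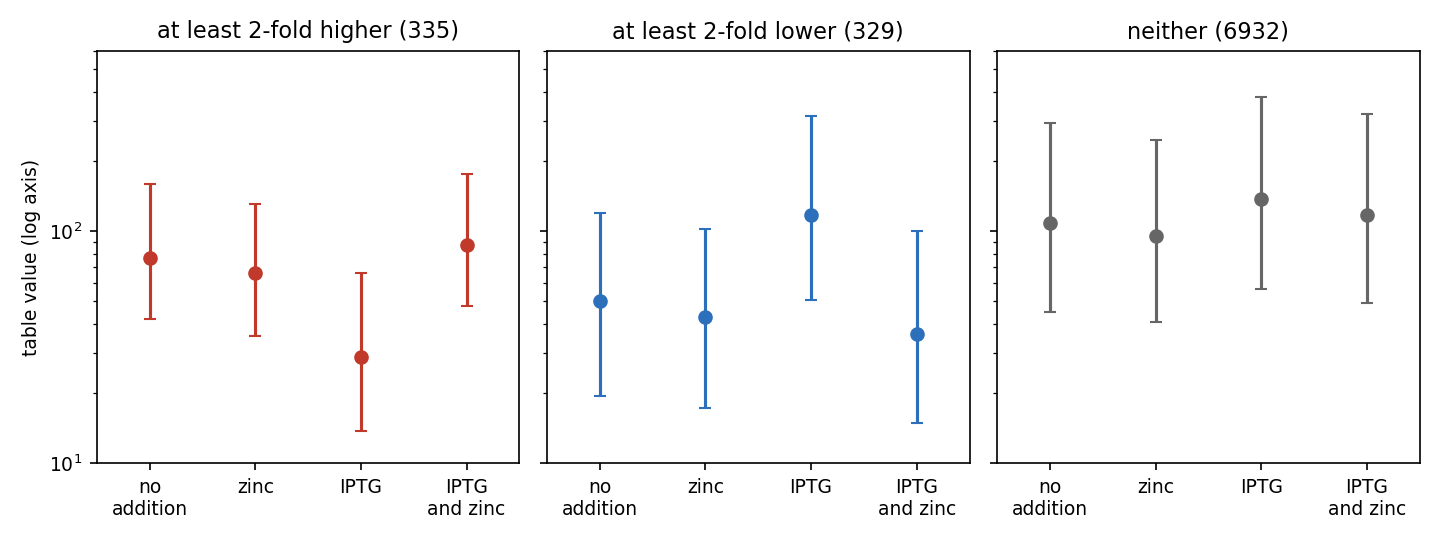
Median table value (points) and quartiles (bars) on the 4 arrays, on a log axis, for probes at least 2-fold higher with zinc in IPTG-treated cells (red), at least 2-fold lower (blue) and neither (grey). In red the array with IPTG alone is lowest at 28.7, and in blue it is highest at 117.

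A count with the same rule for each of the 4 arrays was made as well. Among the 7839 probes with at least 25 on any array, those were counted in which 3 arrays lay within 1.5-fold of each other and the fourth was at least 2-fold outside them, after centring. The array with IPTG alone stood apart in this way at 298 probes, being higher at 100 and lower at 198. The array with IPTG and zinc did so at 64, that without additions at 6 and that with zinc alone at 3. The other 3 arrays lay within 1.5-fold at 4483, 3641, 3120 and 3110 probes, in the same order. Between the arrays without IPTG, only 19 of the 7596 members were 2-fold apart after centring. Either could thus seldom lie 2-fold from 3 arrays that included the other, and its low count follows largely from this. Of the 664 called probes, 247 were among the 298 and 54 among the 64. This overlap follows largely from the rules. A probe counted for either IPTG array is at least 2-fold from the other one after centring, which is part of the call. In the table as deposited the counts were 311 and 52 for the arrays with IPTG and with both. Of the 311, 191 were then higher, so the direction depends on scaling. Quantile normalization with an offset of 50 gave 151 and 26, and the array with IPTG alone was higher at 44 and lower at 107. Normexp with the local background gave 125 and 40, of which 68 and 8 were among the called probes, and the array with IPTG alone was higher at 37 and lower at 88. It gave 29 without additions and 16 with zinc alone.

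**Figure D5:**
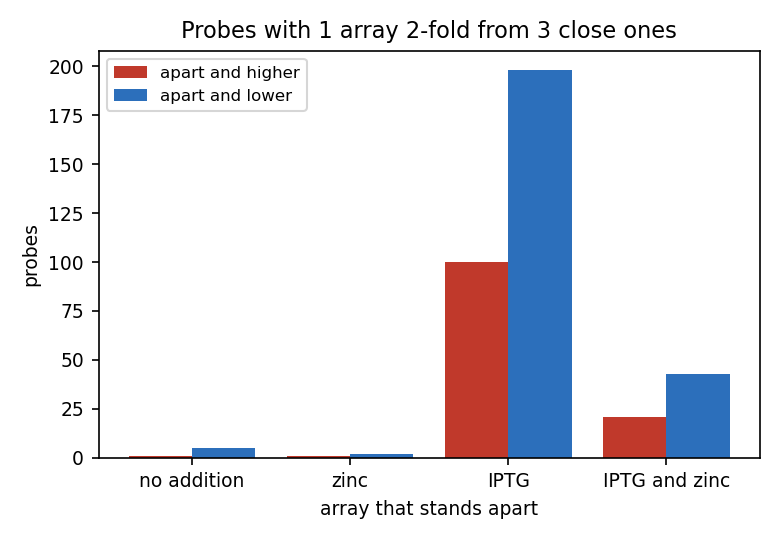
Number of probes, of 7839, at which 1 array is at least 2-fold above (red) or below (blue) the other 3, which lie within 1.5-fold of each other (centred table values). The array with IPTG alone has 100 and 198, that with IPTG and zinc 21 and 43, and those without IPTG at most 5 in either direction.

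The distance between arrays was taken as the robust SD of the centred log2 difference over the 7596 probes. It was 0.75 between no addition and IPTG, 0.58 between no addition and both, and 0.51 between IPTG and both, compared with 0.21 between no addition and zinc. With normexp on the local background these were 0.66, 0.56, 0.43 and 0.32, in the same order. At least 2-fold apart after centring were 1859 of the 7596 probes between no addition and IPTG and 1091 between no addition and both. The 2 counts share the array without additions, and with 1 array per condition an effect of zinc on the induced cells and an IPTG culture or array that stands apart cannot be told apart.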

How the data were processed

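Total RNA of 4 cultures was labelled with Cy5 and hybridised to 4 single-colour arrays, per the labels' protocols. Per the file headers, the deposited scanner files give spot and local background intensity as medians, read at 635 nm and 3 gains, unscaled between arrays. The table deposited by the authors has linear normalized intensity values, whose making was worked out from the numbers (largest residual 5e-06). It reaches 0 at the mean of the blank spots with 5% left out at each end, and its median is 25 per array. Its software is not given in the sources used here.

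Log2 ratios of table values were taken for probes with 25 or more on at least 1 array of the pair. For 1 member without a value on an array, where its spot was marked poor, its own blank-corrected value was used; the detection limit was the blank mean plus 2 SD. Normexp (limma 3.58.1, R 4.3.3, offset 50, quantile) was the check with the local background, and the calling step was tested on simulated data with known changes, which gives no error rate for these arrays. The number of arrays limits precision. The probe rule was the 2 highest and 2 lowest called probes by the smaller of the 2 log2 differences. The planned named genes and 40 gene lists, markers included, and the promoter motifs could not be applied, because no identifier matched. Members, lists and limits were chosen with earlier results of these data known.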

Additional observations from a re-analysis of the deposited data

Results flagged for a closer look

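The 5273 spots without a probe were used in no comparison. Above the blank limit lay 17.9% of them with IPTG and 24.0% with IPTG and zinc. Among the blank spots this was 7.51% and 7.59%. What these spots carry is not given in the sources used here.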

How the results depend on the processing

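With 1 array per condition, precision cannot be estimated and dim probes near the blank level are least certain. No paired analysis was possible because each condition has 1 array and no test was made. Gene list medians were not run, because no identifier matched. With zinc in IPTG cells, 335 probes were higher and 329 lower. Each alternative recounted all probes that entered, not these lists. The table as deposited counted 649 lower, centring 513 higher and the unscaled signal 569 higher. Quantile normalization with offset 50 counted 239 higher and 135 lower, and normexp with the local background 320 higher and 205 lower. A floor of 100 gave 153 higher and 173 lower, no floor 671 and 828, a 1.5-fold limit 713 and 979, and a 3-fold limit 144 and 95. Floors of 50, and only probes listed on both arrays, moved neither count by over 1.5 times. Without IPTG, where the alternatives were added after the data were seen, 13 of 6983 probes were called. This became 28 as deposited, 221 with normexp, 7 with a floor of 100, 193 with none, 109 at 1.5-fold and 4 at 3-fold. The 4 probes named by identifier kept their direction after centring, unscaled, with quantile normalization and with normexp, the only alternatives run for them. Centring and the unscaled signal shift every log2 difference by a constant too small to turn these, so they are no check of direction. The causes were not tested.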
